A study of Mus musculus with 6 samples.

Results

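Zap70, Grap2, Trac, Cd4 and Ccl5 are genes that act in or around signalling by the T-cell receptor, and they were followed here through sorted mouse retinal cells. They were taken by name from the deposited table of normalized RNA-seq values, where they make up 5 of 15450 named genes and 7 of 26691 transcript rows. All 5 had been named with their values in this comparison in view. Their differences between the groups are therefore described without a test, and nothing is supported with them.

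Mice entered the study at about 3 to 4 weeks of age, and their eyes carried an adeno-associated virus (AAV) for 2 weeks. The optic nerve of every animal was crushed 3 days before the retina was taken, so both groups carry the injury, and no uninjured group was used here. The AAV-Sox11 group carried Sox11, a transcription factor of developing neurons, and the AAV-Control group carried PLAP as its cargo. The sources used here name neither the promoter that drives either cargo nor the mouse strain. There were 3 libraries a group, lettered A, B and C, and each library pooled 3 retinas of different animals. Same-lettered libraries of the groups were prepared on the same day, per the series description. Papain-dissociated cells were stained with an antibody to Thy1 and a dye for dead cells, and flow cytometry kept those that were alive and carried Thy1. Retinal ganglion cells, which send their axons through the optic nerve, carry Thy1 on their surface. Mouse T cells carry it too, so a Thy1 sort does not remove them.

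Deposited whole-number values summed to between 10747985 and 11546892 per library, which stand for depth only approximately because the values had been adjusted. One direction across the 6 libraries held no spread beyond rounding (SD 9.48e-05 natural log units, against 0.017 from read counting alone). AAV-Sox11 A, B and C carried 18.4%, 57.7% and 12.5% of its squared weight, so SDs within the AAV-Sox11 group lack that spread, by an amount that was not measured. Sox11 itself had normalized values of 179.3, 233.7 and 283.6 in AAV-Sox11 libraries A, B and C, against 131.1, 110.8 and 100.3 in AAV-Control libraries A, B and C (log2 difference 1.0 ± 0.20, SE). Its adjusted p in limma was 0.0504, just over the threshold of 0.05, and 0.0461 to 0.241 over the 13 alternatives tried, 3 of which brought it past the threshold. Viral and endogenous transcripts of Sox11 cannot be told apart in these values. The cells are labelled as retinal ganglion cells, and rod transcripts were abundant among them. Per kilobase of transcript, the rod gene Gnat1, the alpha subunit of transducin, averaged 4530 with AAV-Sox11 and 6240 in the controls. Slc17a6, the glutamate transporter gene of ganglion cells, averaged 581 and 287 on the same scale, and the ganglion cell gene Rbpms 17.0 and 17.2.

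The T-cell receptor has no enzyme activity of its own. When it binds a peptide on an MHC molecule, Src-family kinases phosphorylate its CD3 and zeta chains, and the kinase ZAP-70 docks there and is activated. ZAP-70 then phosphorylates the adaptors LAT and SLP-76, and the protein made from Grap2, known as Gads, holds these adaptors together so that phospholipase C-gamma can signal to calcium and NFAT. Trac encodes the constant region of the receptor's alpha chain, Cd4 the coreceptor that binds MHC class II, and Ccl5 (RANTES) a chemokine that activated T cells and other immune cells release. These genes are known chiefly from lymphocytes.

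The start regions of Zap70 and Grap2 are shown because these genes had the largest differences among the 5 and because the virus supplied a transcription factor. The sequences are those of RefSeq for GRCm38.p6, each running from 250 bases before the start site to 50 bases after it, on the plus strand. Both starts are those of the deposited transcripts. Entries for Trac, Cd4 and Ccl5 were not used here. Capitals mark matches, on either strand, to short motifs: the SOX form AACAAT, another SOX form that shares 5 of its letters (ACAATG), one more SOX form (ACAAAG), the cyclic AMP response element TGACGTCA, the E-box CAGGTG, the RUNX form TGTGGT and the ETS form GGAAGT. The motifs other than these SOX forms were chosen after the sequences had been seen.
Zap70, chr1:36761548-36761847: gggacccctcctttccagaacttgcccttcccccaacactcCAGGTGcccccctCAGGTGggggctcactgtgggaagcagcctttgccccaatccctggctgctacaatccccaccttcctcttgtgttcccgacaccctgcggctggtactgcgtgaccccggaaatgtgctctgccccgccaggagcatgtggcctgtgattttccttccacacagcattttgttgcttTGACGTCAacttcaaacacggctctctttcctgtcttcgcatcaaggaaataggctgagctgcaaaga
Grap2, chr15:80623233-80623532: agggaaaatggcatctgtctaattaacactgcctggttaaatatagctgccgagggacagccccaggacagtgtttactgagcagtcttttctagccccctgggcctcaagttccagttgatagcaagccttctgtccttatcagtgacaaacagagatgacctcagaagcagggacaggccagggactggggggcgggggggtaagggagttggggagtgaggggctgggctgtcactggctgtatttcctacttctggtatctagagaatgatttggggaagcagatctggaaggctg
The Zap70 window held the E-box at positions -209 and -196 from the start site and the palindromic cyclic AMP response element at -18, and no SOX form. The Grap2 window held 0 matches to any of the motifs. Of 32851 windows of the same length in the same table, 20.2% held the E-box on either strand, 1.79% the cyclic AMP response element and 33.2% at least 1 SOX form. A pair of further Zap70 windows, at starts that no deposited row uses, held SOX forms at -125 (AACAAT, minus strand, chr1:36764265-36764564) and at -94 (ACAAAG, chr1:36778734-36779033). These letters describe the windows and say nothing on whether a factor bound there.

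Zap70 encodes the receptor-bound tyrosine kinase itself. It had normalized values of 202.3, 272.1 and 210.2 in AAV-Sox11 libraries A, B and C, against 30.09, 75.51 and 35.69 in AAV-Control libraries A, B and C. The groups did not overlap, the lowest AAV-Sox11 library standing 2.68-fold above the highest control, and the B library was the highest in both groups. Means were 228 ± 38.2 with AAV-Sox11 and 47.1 ± 24.8 in the controls (SD, n = 3), and the log2 difference of the fit was 2.36 ± 0.34 (SE), or 5.12-fold. The deposited row is the protein-coding transcript ENSMUST00000027291, with 13 exons and 2245 bases, at chr1:36761798-36782818 on the plus strand (GRCm38, the same build as mm10). It is the 1 row of Zap70 in the table, of 4 annotated transcripts. Its span overlaps Gm18828, a processed pseudogene on the opposite strand that was not tested, and whether reads were counted by strand is not stated in the sources. Whether a bulk value is higher because more cells of a type were sorted or because each cell held more RNA cannot be told apart.

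Grap2 encodes the adaptor that joins LAT to SLP-76. Its values were 165.8, 185.9 and 170.9 in AAV-Sox11 libraries A, B and C, against 14.55, 38.25 and 31.84 in AAV-Control libraries A, B and C. The AAV-Sox11 libraries lay within 1.12-fold of each other and the controls within 2.63-fold, and the lowest AAV-Sox11 library stood 4.33-fold above the highest control. Means were 174 ± 10.4 with AAV-Sox11 and 28.2 ± 12.3 in the controls (SD, n = 3), with a log2 difference of 2.69 ± 0.34 (SE), or 6.44-fold. The row, ENSMUST00000043149, has 7 exons and 5475 bases and lies at chr15:80623483-80652854 on the plus strand. It is the 1 row of 5 annotated transcripts, and its gene overlaps Gm49553 and the microRNA gene Mir6957 on the same strand, neither of them tested. By log2 difference, Grap2 and Zap70 were the third and the fourth of all genes.

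**Figure D1:**
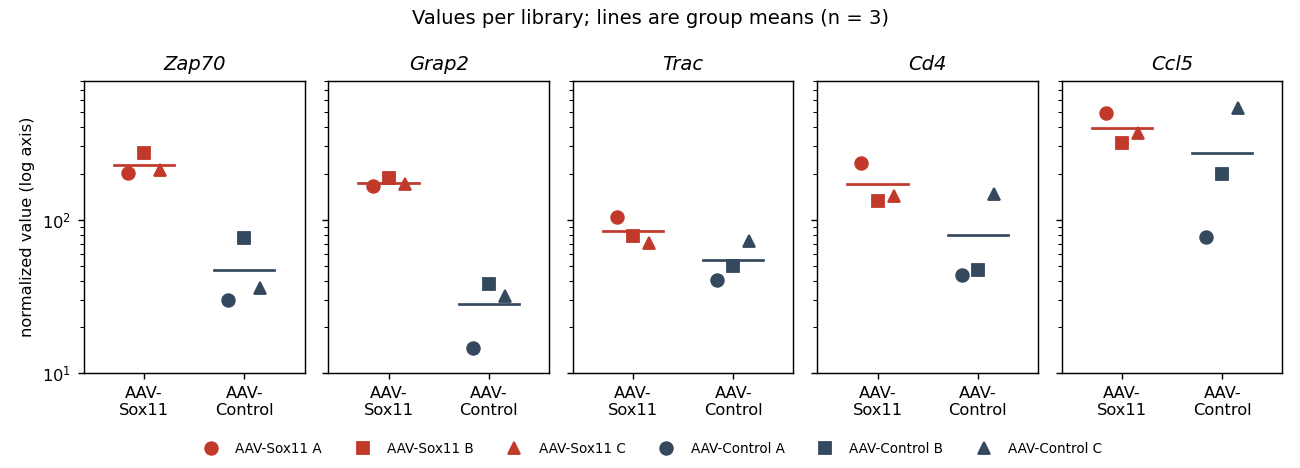
Normalized values of the 5 genes in each library on a log axis, AAV-Sox11 (red) left of AAV-Control (blue), with lines at the group means (n = 3) and symbols for the same-day letters. Zap70 and Grap2 do not overlap between the groups, while AAV-Control C lies within or above the AAV-Sox11 libraries for Trac, Cd4 and Ccl5.

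Trac, the receptor's alpha-chain constant gene, overlapped between the groups. Its values were 104.2, 78.93 and 70.39 in AAV-Sox11 libraries A, B and C, against 40.77, 50.01 and 72.37 in AAV-Control libraries A, B and C. AAV-Sox11 A was the highest, and AAV-Control C stood a little above AAV-Sox11 C. Means were 84.5 ± 17.6 with AAV-Sox11 and 54.4 ± 16.2 in the controls (SD, n = 3), with a log2 difference of 0.65 ± 0.26 (SE). The row, ENSMUST00000103740, has 3 exons and 413 bases at chr14:54220521-54223097 on the plus strand. A constant-region gene can be spliced to any of many joining segments, so the value covers receptors of any specificity that use it.

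Cd4, the coreceptor for MHC class II, also overlapped. Summed over its pair of rows, it had 235.6, 132.9 and 141.8 in AAV-Sox11 libraries A, B and C, against 43.67, 47.06 and 146.7 in AAV-Control libraries A, B and C. Controls A and B lay well below every AAV-Sox11 library, while control C lay above AAV-Sox11 B and C. Means were 170 ± 56.9 with AAV-Sox11 and 79.1 ± 58.5 in the controls (SD, n = 3), with a log2 difference of 1.28 ± 0.47 (SE).

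Ccl5, the chemokine, was the least even of the 5 among the controls. Its values were 496.2, 315.7 and 368.0 in AAV-Sox11 libraries A, B and C, against 76.68, 197.1 and 537.5 in AAV-Control libraries A, B and C. The controls spanned 7.01-fold and the AAV-Sox11 libraries 1.57-fold, and the highest of all 6 was AAV-Control C. Means were 393 ± 92.9 with AAV-Sox11 and 270 ± 239 in the controls (SD, n = 3), with a log2 difference of 0.94 ± 0.61 (SE). It was 0.25 without AAV-Control A and 1.64 without AAV-Control C, and with an index of the animals' sex as a covariate it was 2.30, as Cd4 was 2.52 and Trac 1.24. Of the 5 genes, Zap70 and Grap2 did not overlap between the groups. Over all genes, 16.2% did not overlap and were higher with AAV-Sox11, and 14.4% did not overlap and were lower; since these values chose the 5 genes, nothing is read from that count.

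Cd4 and Ccl5 each had a protein-coding row and a retained-intron row, which keeps part of an intron and is not translated into the full protein. The coding row of Cd4 (ENSMUST00000024044, 10 exons, 3108 bases, chr6:124864692-124888221, minus strand) had 193.9, 101.8 and 117.6 in AAV-Sox11 libraries A, B and C, against 37.85, 29.41 and 124.5 in AAV-Control libraries A, B and C. Its retained-intron row (ENSMUST00000151594) held 17.7%, 23.4% and 17.0% of the Cd4 value in AAV-Sox11 libraries A, B and C, against 13.3%, 37.5% and 15.1% in AAV-Control libraries A, B and C. Fitted alone, the rows differed by 1.33 ± 0.50 and 1.18 ± 0.46 (log2, SE), so both stood in the same direction and at a like size. The coding row of Ccl5 (ENSMUST00000035938, 3 exons, 532 bases, chr11:83525778-83530518, minus strand) had 450.4, 272.1 and 328.8 in AAV-Sox11 libraries A, B and C, against 51.44, 153.9 and 497.9 in AAV-Control libraries A, B and C. The retained-intron row of Ccl5 (ENSMUST00000125015) varied far less, with 45.87, 43.62 and 39.22 in AAV-Sox11 libraries A, B and C, against 25.23, 43.15 and 39.56 in AAV-Control libraries A, B and C. Its share of the Ccl5 value was 9.24%, 13.8% and 10.7% in AAV-Sox11 libraries A, B and C, against 32.9%, 21.9% and 7.36% in AAV-Control libraries A, B and C. The wide control range of Ccl5 thus lay in the coding row, whose log2 difference was 1.11 ± 0.68 (SE), against 0.28 ± 0.24 for the retained-intron row. In the authors' deposited table the log2 fold changes of AAV-Sox11 over AAV-Control were 2.27 for Zap70, 2.62 for Grap2, 0.63 for Trac, 1.11 and 1.08 for the coding and retained-intron rows of Cd4, and 0.58 and 0.25 for those of Ccl5.

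**Figure D2:**
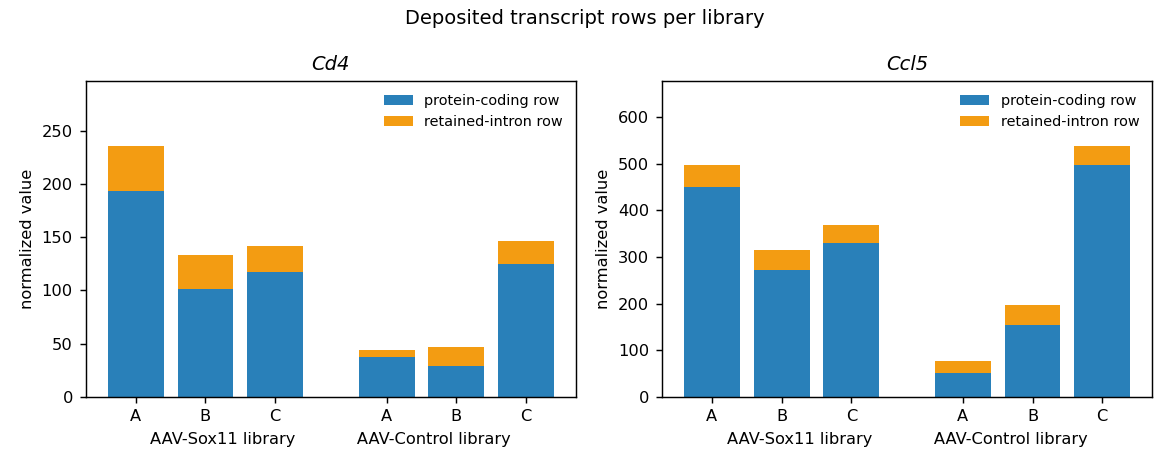
Normalized values of the protein-coding (blue) and retained-intron (orange) rows of Cd4 and Ccl5, stacked, in the 3 AAV-Sox11 libraries and then the 3 AAV-Control libraries. The retained-intron row of Ccl5 lies between 25.23 and 45.87 in every library while the coding row runs from 51.44 to 497.9.

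Within the same-day pairs, the log2 differences of Zap70 were 2.71, 1.84 and 2.52 for pairs A, B and C, and those of Grap2 were 3.42, 2.25 and 2.39. Both genes were thus higher with AAV-Sox11 in every pair, as were 28.4% of all genes. Trac, Cd4 and Ccl5 shared another order. Trac had 1.33, 0.65 and -0.04 for pairs A, B and C, Cd4 had 2.41, 1.48 and -0.05, and Ccl5 had 2.68, 0.68 and -0.55. Each of these 3 differed most in pair A and lay at or below 0 in pair C. The order A over B over C, noticed in these values, was counted in further T-cell genes. It was found in 6 of 10 T-cell lineage genes and 15 of 29 other T-cell receptor signalling genes, against 26.1% of all genes, and nothing is called particular to the lists from it. Examples, named after their values were seen, lay both ways. Cd8b1, a chain of the CD8 coreceptor, had 3.86, 0.79 and 0.06 for pairs A, B and C, and Cd5, an inhibitory receptor of T cells, had 2.0, 0.30 and -1.16. Cd247, the zeta chain gene, had -0.62, -0.25 and -0.31, lowest in pair A. Trat1, a receptor-associated adaptor gene, ran the other way at -0.12, 0.13 and 1.11, and Il7r, the interleukin-7 receptor gene, had 0.74, 0.90 and 0.57.

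**Figure D3:**
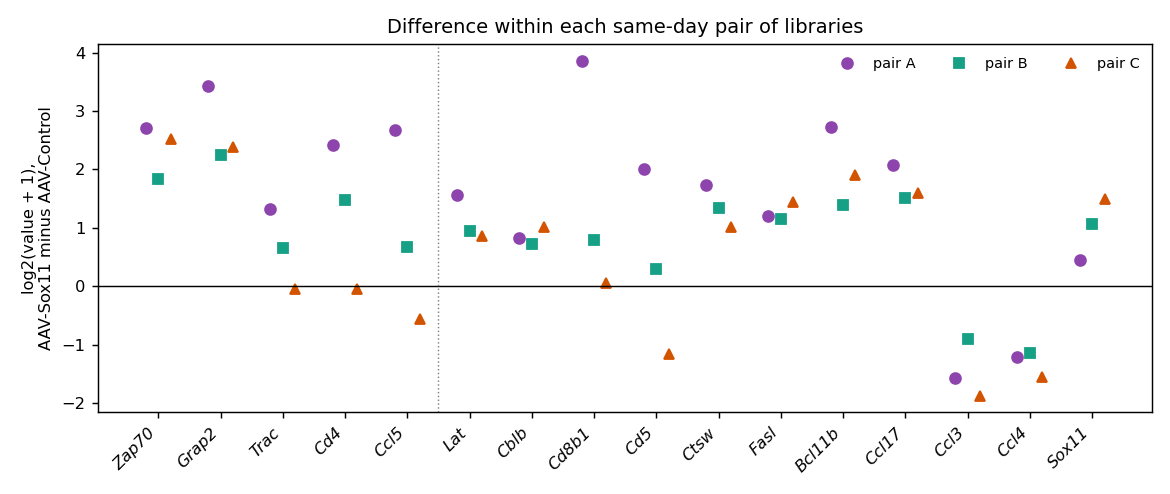
Difference in log2(normalized value + 1), AAV-Sox11 minus AAV-Control, within the same-day pairs A, B and C, for the 5 genes (left of the dotted line) and 11 others. Zap70 and Grap2 lie at 1.84 or above in every pair, while Trac, Cd4, Ccl5, Cd8b1 and Cd5 spread from pair A at the top to pair C near or below 0.

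Levels of different genes were compared as normalized value per kilobase of transcript, a scale on which the median gene averaged 101 with AAV-Sox11 and 106 in the controls (15375 genes). On it Ccl5 was the highest of the 5, at 723 with AAV-Sox11 and 495 in the controls. Trac followed, at 205 and 132. Zap70 averaged 102 with AAV-Sox11 and 21.0 in the controls, which put it at the 50.1 percentile of all genes in the first group and at the 15.0 percentile in the other. Cd4 averaged 64.0 and 29.8. Grap2 was the lowest, at 31.8 with AAV-Sox11 and 5.15 in the controls, the 23.3 and the 1.49 percentile. The order of the means was Ccl5, Trac, Zap70, Cd4 and Grap2 with AAV-Sox11, while in the controls Cd4 stood above Zap70. Neighbours in these orders overlapped in their libraries for Zap70 and Cd4 in the controls (13.4 to 33.6 and 15.7 to 53.5) and for Ccl5 and Trac in the controls (134 to 995 and 98.7 to 175). With AAV-Sox11, the lowest Zap70 library (90.1) lay just above the highest Cd4 library (87.7).

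The comparison was then carried to the rest of the pathway. Over all 15450 genes, limma called 123 higher (0.796%) and 235 lower (1.52%) with AAV-Sox11 at an adjusted p under 0.05, 2.32% in either direction, and the median log2 difference was 0.03. An unadjusted p under 0.05 was found for 24.3% of all genes, and 53.8% had a positive log2 difference. The counts of list genes below stand against these shares. Scaling by library totals alone gave 103 higher and 356 lower. No gene was called when any 1 AAV-Sox11 library was left out (0 higher and 0 lower), although 1942 to 3120 genes had an unadjusted p under 0.05 in those fits, against 3762 with all libraries. Likewise 0 were called with the removed direction or the sex index as a covariate (2582 and 2702 at an unadjusted p under 0.05). The calls of this fit given below therefore need all 3 AAV-Sox11 libraries. Without a covariate, the fit counts the removed direction as free to vary, so its p-values may be too low. That direction lay almost at right angles to the group contrast (cosine -0.019), so as a covariate it could hardly move the differences. Zap70 stayed at 2.36 and Lat at 1.12, and nothing is read from that. The sex index lay higher in every AAV-Sox11 library than in any control, so it cannot be told apart from the cargo. The margin was narrow, with 6.86 in AAV-Sox11 A against 6.82 in AAV-Control A, and the index also varied within the groups. With the same-day letter as a replicate block, 323 genes (2.09%) were called higher and 414 (2.68%) lower. No library was left out of the blocked fit, so how far its calls need any 1 library was not measured. The removed direction is missing from the spread of the blocked fit too. Its p-values may therefore be too low, by an amount that was not measured.

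A list of T-cell receptor signalling genes held 55 genes besides the 5, of which 29 were among those analysed here. Of these 29, limma called 1 higher, Cblb, and 0 lower, against 0.796% and 1.52% of all genes. An unadjusted p under 0.05 in either direction was found for 10 of them, and for 24.3% of all genes. The median log2 difference was 0.19, against 0.03 over all genes. The difference was positive for 21 and negative for 8, where 53.8% of all genes were positive. Groups did not overlap for 10 genes that were higher and 2 that were lower, against 16.2% and 14.4% of all genes. With the replicate block 3 genes were called higher, Cblb, Lat and Cbl.

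At the receptor, Cd247 encodes the zeta chain on which ZAP-70 docks. It had 50.04, 47.77 and 47.26 in AAV-Sox11 libraries A, B and C, against 77.67, 56.87 and 58.85 in AAV-Control libraries A, B and C (log2 difference -0.39 ± 0.19, SE, limma adjusted p = 0.251). The zeta gene thus stood lower in every AAV-Sox11 library, without passing the test, where the kinase gene stood higher. Cd8b1 had 69.83, 41.54 and 15.09 with AAV-Sox11, against 3.87, 23.54 and 14.47 in the controls (1.57 ± 0.72, adjusted p = 0.228). The CD3 chain genes Cd3d, Cd3e and Cd3g, the beta-chain genes Trbc1 and Trbc2, and Cd8a were not among the genes analysed here.

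Among kinases and phosphatases, Syk, the relative of Zap70 used by B cells and myeloid cells, had 36.49, 28.04 and 28.16 with AAV-Sox11, against 16.49, 32.36 and 48.25 in the controls (log2 difference 0.05 ± 0.38, SE, limma adjusted p = 0.954). Its groups overlapped fully. Fyn, a Src-family kinase of T cells and neurons, differed by 0.13 ± 0.26 (adjusted p = 0.792), and Ptprc, which encodes the pan-leukocyte phosphatase CD45, by -0.27 ± 0.37 (adjusted p = 0.683). The sign of Fyn, Syk and Ptprc turned under some of the alternatives, Ptprc to 0.64 with an index of the animals' sex as a covariate. Lck was not among the genes analysed here. Of 7 genes analysed from a list of 17 Src, Syk and Tec family kinases, 0 were called in either direction (1 had an unadjusted p under 0.05), and their median log2 difference was 0.05.

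Among adaptors, Lat, the membrane scaffold that Gads binds, had 105.3, 107.0 and 119.7 in AAV-Sox11 libraries A, B and C, against 34.94, 54.91 and 65.62 in AAV-Control libraries A, B and C. The groups did not overlap, and Lat was higher in 3 of 3 same-day pairs (log2 differences 1.56, 0.95 and 0.86). Its log2 difference of 1.12 ± 0.25 (SE) missed the threshold in limma (adjusted p = 0.0578) and passed it with the replicate block (adjusted p = 0.0422) and without AAV-Control C (adjusted p = 0.0419); over the alternatives the adjusted p ran from 0.0419 to 0.268. Lcp2, the gene of SLP-76, and the Grap2 relatives Grb2 and Grap were not among the genes analysed here. Of 10 genes analysed from a list of 16 Grb2 and Gab adaptors, 0 were called in either direction (1 had an unadjusted p under 0.05), with a median of -0.02. Gab2, a docking protein named after its values were seen, was called with the replicate block (0.69 ± 0.16 in the fit without the block, adjusted p = 0.063, and 0.0354 with it).

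Among the effectors, Plcg1, the phospholipase downstream of LAT, had 847.6, 865.0 and 814.5 with AAV-Sox11, against 851.4, 849.2 and 801.8 in the controls (log2 difference 0.01 ± 0.08, SE, limma adjusted p = 0.931). Prkcq, the protein kinase C isoform of the T-cell synapse, had 75.07, 82.04 and 90.50 with AAV-Sox11, against 52.43, 39.22 and 41.49 in the controls, with no overlap (0.89 ± 0.19, adjusted p = 0.0562). Nfatc1, a transcription factor that calcium activates, lay the other way, at 60.47, 50.89 and 56.31 with AAV-Sox11, against 70.86, 103.9 and 147.6 in the controls (-0.87 ± 0.27, adjusted p = 0.112). Its relatives Nfatc2 and Nfatc3 stood higher with AAV-Sox11, with no overlap between the groups. Their log2 differences were 0.39 ± 0.19 and 0.32 ± 0.09 (SE, limma adjusted p = 0.252 and 0.099), so the NFAT genes did not share a direction. Prkcq and these NFAT genes were named after their values were seen.

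The call in the list was a brake of the pathway. Cblb encodes an E3 ubiquitin ligase that restrains T-cell activation and is made in many tissues. It rose to 3113, 3595 and 3496 in AAV-Sox11 libraries A, B and C, against 1751, 2175 and 1735 in AAV-Control libraries A, B and C (log2 difference 0.85 ± 0.11, SE, limma adjusted p = 0.019). It was higher in 3 of 3 same-day pairs, and its adjusted p over the alternatives ran from 0.0152 to 0.141. The call was lost without AAV-Sox11 A, B or C (adjusted p = 0.063, 0.114 and 0.0834) and without AAV-Control A (0.0572). Its relative Cbl, named after its values were seen, averaged 3486 ± 269 with AAV-Sox11 and 2373 ± 319 in the controls (SD, n = 3), with a log2 difference of 0.56 ± 0.11 (SE, limma adjusted p = 0.0536, and 0.0417 with the replicate block).

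**Figure D4:**
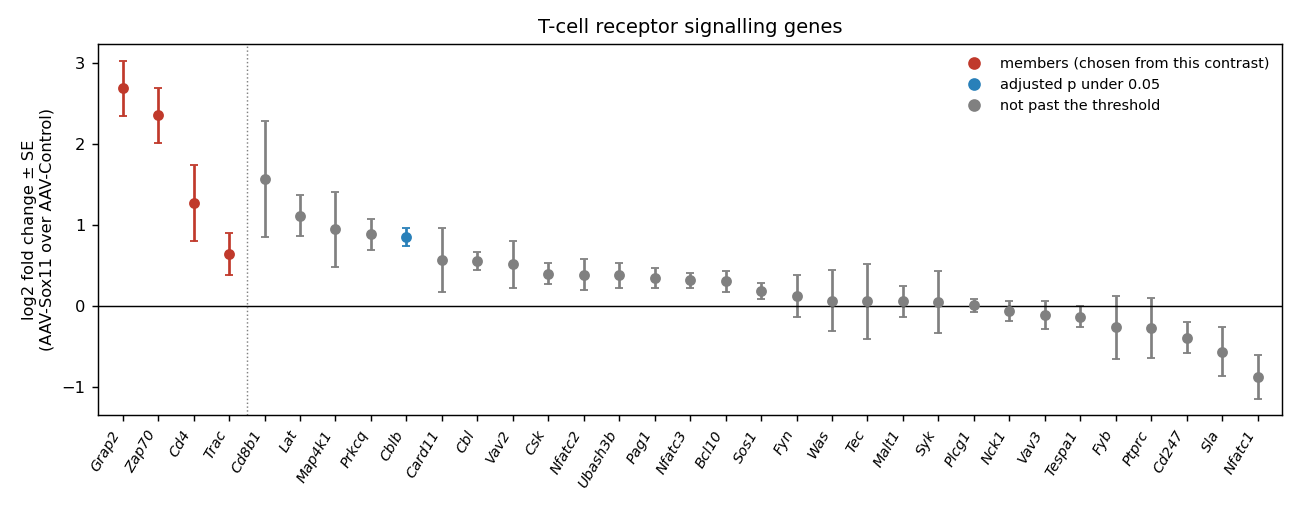
Log2 fold change, AAV-Sox11 over AAV-Control, with its SE (n = 3 libraries a group) for Zap70, Grap2, Cd4 and Trac (red, left of the dotted line, chosen from this contrast) and the 29 other T-cell receptor signalling genes analysed. Cblb (blue) is the 1 gene of the 29 past an adjusted p of 0.05, and Cd247, Sla and Nfatc1 lie at the negative end.

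Ccl3 and Ccl4, the macrophage inflammatory proteins, are CC chemokines like Ccl5. Ccl3 had 142.8, 121.5 and 353.9 in AAV-Sox11 libraries A, B and C, against 424.3, 227.5 and 1293 in AAV-Control libraries A, B and C. Ccl4 had 38.59, 40.51 and 106.6 in AAV-Sox11 libraries A, B and C, against 90.28, 90.21 and 313.6 in AAV-Control libraries A, B and C. For both genes the C library was the highest of its group, and each AAV-Sox11 library lay below its same-day control. Their log2 differences of -1.44 ± 0.65 and -1.30 ± 0.57 (SE) did not pass in limma (adjusted p = 0.223 and 0.217), and both did with the replicate block (adjusted p = 0.0285 for each). Ccl5 thus stood higher in pairs A and B, where Ccl3 and Ccl4 stood lower.

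Of 22 genes analysed from a list of 41 chemokines and their receptors, limma called 1 higher, Ccl17, and 0 lower, against 0.796% and 1.52% of all genes. Their median log2 difference was -0.34, and 6 had an unadjusted p under 0.05, as had 24.3% of all genes. Ccl17, a chemokine that draws T cells through Ccr4, rose to 81.32, 79.96 and 54.30 in AAV-Sox11 libraries A, B and C, against 18.44, 27.46 and 17.36 in AAV-Control libraries A, B and C (1.73 ± 0.27, SE, limma adjusted p = 0.0264). It was higher in 3 of 3 same-day pairs, and its adjusted p over the alternatives ran from 0.0232 to 0.176. The call was lost without AAV-Sox11 A, B or C (adjusted p = 0.102, 0.176 and 0.0752) and without AAV-Control A (0.0652). With the replicate block 4 genes of the list were called lower, Ccl3, Ccl4, Ccl12 and Ccrl2. The whole list had mean centred log2 values of -0.24, -0.41 and 0.19 in AAV-Sox11 libraries A, B and C, against -0.01, -0.35 and 0.82 in AAV-Control libraries A, B and C, with AAV-Control C the highest.

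Cd4 binds MHC class II, and a list of 13 CD4 ligands and partners had 8 genes analysed. None was called in limma (0 higher and 0 lower), and 5 had an unadjusted p under 0.05, as had 24.3% of all genes. The median log2 difference was 0.71, against 0.03 over all genes, and 4 genes were higher with no overlap, as were 16.2% of all genes. With the replicate block 2 genes were called higher, Ciita and H2-DMa, named after their values were seen. Ciita, the transactivator that switches on MHC class II genes, had 559.8, 589.8 and 307.7 in AAV-Sox11 libraries A, B and C, against 156.3, 291.2 and 115.8 in AAV-Control libraries A, B and C. Its log2 difference was 1.42 ± 0.37 (SE, limma adjusted p = 0.0812, and 0.0285 with the replicate block). H2-DMa, a chain of the chaperone that loads class II peptides, differed by 1.0 ± 0.34 (adjusted p = 0.136, and 0.0489 with the block). The class II chain genes, also named after their values were seen, were uneven, with H2-Ab1 at 0.88 ± 0.27 (adjusted p = 0.11) and H2-Aa at -0.12 ± 0.35 (adjusted p = 0.866).

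Genes of T-cell identity and of cytotoxic cells were examined because Trac, Cd4 and Zap70 are markers of T cells. Of 28 T-cell lineage genes, 10 were analysed and 0 were called in limma in either direction. An unadjusted p under 0.05 was found for 4 of the 10, and for 24.3% of all genes. Their median log2 difference was 0.49, against 0.03 over all genes, and 4 were higher with no overlap, as were 16.2% of all genes. Bcl11b, a transcription factor of T cells that neurons also make, had 384.7, 500.5 and 516.8 in AAV-Sox11 libraries A, B and C, against 57.27, 190.2 and 138.0 in AAV-Control libraries A, B and C. Its log2 difference was 2.01 ± 0.40 (SE, limma adjusted p = 0.0524, and 0.0285 with the replicate block), and it was named after its values were seen. Of 14 NK and cytotoxic cell genes, 2 were analysed and both were called higher, as were 0.796% of all genes. Nkg7, Gzma, Gzmb, Prf1 and Ncr1 were among those of the list not analysed here, so the pair does not stand for the list. Ctsw, the cathepsin of cytotoxic lymphocytes, rose to 213.7, 193.2 and 167.9 with AAV-Sox11, against 63.10, 75.51 and 82.01 in the controls (1.37 ± 0.17, adjusted p = 0.0162, range over the alternatives 0.0161 to 0.123). Fasl, which encodes the death-receptor ligand of activated T cells, rose to 72.98, 82.04 and 67.37 with AAV-Sox11, against 31.07, 36.28 and 24.11 in the controls (1.27 ± 0.21, adjusted p = 0.0336, range 0.0309 to 0.236). Both were higher in 3 of 3 same-day pairs. Without AAV-Sox11 A, B or C the adjusted p of Ctsw was 0.0729, 0.123 and 0.0683, and that of Fasl 0.113, 0.236 and 0.107; Fasl also lost its call without AAV-Control A (0.0652).

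Of 8 T-cell markers, Cd247 and Cd5 were analysed. Their summed values were 258.5, 143.3 and 86.48 in AAV-Sox11 libraries A, B and C, against 129.1, 134.3 and 147.6 in AAV-Control libraries A, B and C, so the groups overlapped and the spread was widest with AAV-Sox11. The part of T-cell content in the values of Zap70, Grap2, Trac, Cd4 and Ccl5 was not tested. None of the 6 NK cell markers was among the genes analysed here. Of 10 microglia and macrophage markers, 7 were analysed, and their summed values were 4283, 3271 and 5017 in AAV-Sox11 libraries A, B and C, against 5527, 3228 and 9150 in AAV-Control libraries A, B and C. AAV-Control C, the library highest in Ccl5 and in Ccl3, was also the highest in these markers, and their part in those values was not tested. Of the wider list of 22 microglia and macrophage genes, 19 were analysed, 3 with a positive and 16 with a negative log2 difference, where 53.8% of all genes were positive. None was called in limma (0 higher and 0 lower), and 4 had an unadjusted p under 0.05, as had 24.3% of all genes. The median was -0.29, and with the replicate block 2 were called lower, Tmem119 and Siglech.

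**Figure D5:**
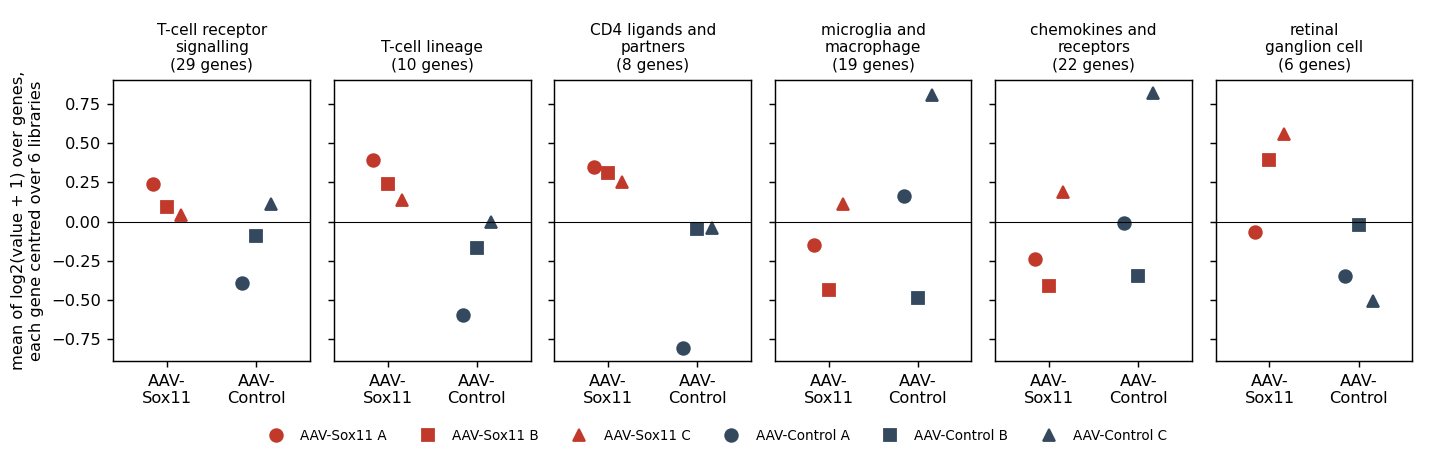
Mean over the genes of 6 lists of log2(normalized value + 1), each gene centred over the 6 libraries, with AAV-Sox11 (red) left of AAV-Control (blue) and symbols for the same-day letters. The T-cell lineage and CD4 partner lists lie higher in every AAV-Sox11 library than in any control, AAV-Control A is the lowest library of the first 3 lists, and AAV-Control C is the highest of the microglia and chemokine lists. The T-cell lineage mean includes Bcl11b, at a log2 difference of 2.01 against a list median of 0.49. In that list AAV-Sox11 C and AAV-Control C stand at 0.14 and 0.0, and means without Bcl11b are not shown, so no T-cell content is read from the separation.

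On the chromosome, the nearest analysed genes were set beside Zap70 and Grap2. Before Zap70 lie Actr1b, at a gap of 47375 bases, and Cox5b, and after it lie Tmem131, on the opposite strand at a gap of 9372 bases, and Inpp4a. Their log2 differences were 0.24 ± 0.10, 0.10 ± 0.27, 0.40 ± 0.11 and 0.60 ± 0.16 (SE), and none of these 4 was called in limma (adjusted p = 0.209, 0.852, 0.0822 and 0.0838). Inpp4a passed with the replicate block (adjusted p = 0.0454). Before Grap2 lie Cacna1i and Rps19bp1, at 0.14 ± 0.11 and 0.18 ± 0.21 (adjusted p = 0.474 and 0.642), and after it lie Fam83f and Tnrc6b. Fam83f, on the same strand as Grap2 at a gap of 18992 bases, rose to 55.26, 62.31 and 54.30 in AAV-Sox11 libraries A, B and C, against 22.33, 25.50 and 18.33 in AAV-Control libraries A, B and C. Its log2 difference was 1.35 ± 0.21 (SE, limma adjusted p = 0.0265, range over the alternatives 0.0253 to 0.214), higher in 3 of 3 same-day pairs. Without AAV-Sox11 A, B or C the adjusted p was 0.10, 0.214 and 0.10, and without AAV-Control A it was 0.058. Tnrc6b, the next gene at a gap of 58458 bases, differed by 0.04 ± 0.08 (adjusted p = 0.802), so of the 8 neighbours the 1 called was Fam83f.

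Genes whose pattern over the 6 libraries was most like that of Zap70 or Grap2 were found by Pearson's r of log2 values, as a description. The 6 libraries fall in 2 groups and share the removed direction, so r mixes the difference between the groups with the spread within them. For Zap70 the nearest of 14340 genes were Cep120 (r = 0.999), a centrosome protein gene, Plcb1 (0.998), a phospholipase gene, Maml2 (0.998), a Notch coactivator gene, Mcm3ap (0.997) and Pdcd10 (0.997). For Grap2 they were Apool (0.999), Fam178a (0.998), Gnpda1 (0.997), Nupl1 (0.997) and the predicted gene Gm7707 (0.997). Since likeness to these genes chose the 10, their differences between the groups were not read as a test. Zap70 and Grap2 had an r of 0.976 with each other, at rank 174 among the genes like Zap70 and rank 151 among those like Grap2. Trac, Cd4 and Ccl5 stood much further off, with r of 0.688, 0.599 and 0.487 to Zap70 and of 0.808, 0.751 and 0.649 to Grap2. Sox11 had an r of 0.849 to Zap70 and 0.829 to Grap2.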

How the data were processed

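Polyadenylated RNA of sorted cells was measured in 6 libraries, amplified and prepared with NuGEN Ovation and TruSeq Nano kits, per the labels' protocols. Per the submitters' processing notes, CASAVA 1.8.2, edgeR (version not stated) and the build mm10 were used; the aligner, counter and strand setting are not stated there. The authors deposited, per transcript, whole numbers with no stated unit, treated here as a score because a direction across libraries had been removed from them, and a normalized signal that equals them times 1 factor per library (0.9649 to 1.043). The authors' deposited log2 fold changes are quoted as theirs, and their p-values are not used. Every row had reached at least 1.06 CPM in some library, so the table was filtered before deposit.

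Signal columns were summed per gene name over 26334 named rows (357 rows without a name, 0.422% to 0.517% of each total, were left out) and tested as log2(value + 1) with limma 3.58.1 in R 4.3.3, with Benjamini-Hochberg adjustment over 15450 genes. The lowest gene mean was 7.2. The test planned for counts was replaced because the values are not counts, and the limma fit was tested on simulated data. Fold changes on this scale understate those of low genes. P-values measure the spread between these pools of 3 animals, from which the removed direction is missing. Letters A, B and C pair libraries by day, per the series description. Deviations from the group means correlated by 0.0025, 0.793 and 0.236 in pairs A, B and C. AAV-Sox11 B and AAV-Control C, of different days, correlated by -0.876, and the other libraries of different days by -0.229 to 0.198. The removed direction enters these values, so no shared effect of the day is read from them.

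The 5 genes and all lists were chosen with earlier results of these data known. Genes named besides the 5 are a fixed set of pathway genes, list genes past an adjusted p of 0.05, the 2 nearest analysed genes on each side of Zap70 and Grap2, and the 5 most alike in pattern to each (mean value of at least 20); any other gene was named after its values were seen. Positions are from the GENCODE annotation of GRCm38, which held 99.1% of the named rows. Some genes of the lists are not reported here by name.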

Additional observations from a re-analysis of the deposited data

How the results depend on the processing

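The differences of the 5 genes kept their sign under every scaling, pseudocount, filter, covariate and left-out library tried, with log2 ranges of 2.06 to 2.75 for Zap70, 2.29 to 2.95 for Grap2, 0.46 to 1.24 for Trac, 0.97 to 2.52 for Cd4 and 0.25 to 2.30 for Ccl5. Neither the removed direction (cosine with the group contrast -0.019) nor the balanced replicate block could move them much. The index of the animals' sex was log2 Xist minus the mean log2 of 4 Y-linked genes. It was 6.86 to 8.45 with AAV-Sox11 and 5.26 to 6.82 in the controls. With it as a covariate, Trac, Cd4 and Ccl5 moved to 1.24, 2.52 and 2.30. The index lay higher in every AAV-Sox11 library than in any control, so its part cannot be told apart from that of the cargo. The cause was not tested. Over all genes, 123 higher and 235 lower became 323 and 414 with the replicate block (same-day pairing) and 103 and 356 with library totals alone. They became 0 and 0 with the removed direction or the sex index as a covariate (2582 and 2702 at an unadjusted p under 0.05). Leaving out 1 library gave 0 to 339 higher and 0 to 406 lower. In the T-cell receptor signalling list, 1 higher became 3 with the replicate block, 0 with either covariate and 0 to 2 with a library left out. The block also brought Lat, Ccl3, Ccl4, Inpp4a and Plcb1 past the threshold, besides genes that were named after their values were seen. It ended no call of a named gene.

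Of 442 values of 34 other named genes (10 of them chosen for likeness to Zap70 or Grap2), 369 kept direction and call, 42 lost a call, 11 gained one and 20 turned in sign. Most of the 34 were not called in the main fit and had no call to lose. Those that were called kept it in 8 of 13 alternatives (Ctsw), in 7 (Cblb, Fasl, Ccl17, Fam83f and Maml2) or in 6 (Slc6a9). With the sex index Fyn turned to -0.56, Plcg1 to -0.02, Ptprc to 0.64, Cox5b to -0.61, Cacna1i to 0.00 and Tnrc6b to -0.08. With library totals alone Syk turned to -0.01, Plcg1 to -0.05 and Tnrc6b to -0.02, and Plcg1 was -0.01 with median-of-ratios scaling. Leaving out 1 library gave ranges of -0.08 to 0.37 for Fyn, -0.36 to 0.39 for Syk, -0.01 to 0.04 for Plcg1, -0.62 to 0.08 for Ptprc, -0.18 to 0.30 for Cox5b and -0.02 to 0.07 for Tnrc6b.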

Other observations

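Lists of retinal cell types were measured in the same libraries. Of 6 ganglion cell genes, 5 had a positive log2 difference, with a median of 0.69, and limma called 0 in either direction (2 had an unadjusted p under 0.05). Of 4 amacrine genes, Gad1, Gad2 and Tfap2b had positive log2 differences (0.09, 0.25 and 0.33), and the median was 0.17. Limma called 1 of the 4 lower, as it did 1.52% of all genes. That gene, Slc6a9, which encodes the glycine transporter of glycinergic amacrine cells, fell to 208.5, 185.9 and 190.0 in AAV-Sox11 libraries A, B and C, against 462.1, 285.3 and 391.7 in AAV-Control libraries A, B and C. Its log2 difference was -0.93 ± 0.18 (SE, limma adjusted p = 0.0481, lower in 3 of 3 same-day pairs). Its adjusted p over the alternatives ran from 0.0219 to 0.241, and it was 0.117, 0.216 and 0.135 without AAV-Sox11 A, B or C, 0.0816 without AAV-Control A and 0.07 without AAV-Control C. All 4 bipolar genes and all 4 rod genes had negative log2 differences, with medians of -0.83 and -0.51, and limma called 0 of them (0 had an unadjusted p under 0.05). With the replicate block the rod gene Gnat1 was called lower (adjusted p = 0.0345) and the ganglion cell transcription factor gene Pou4f2 higher (0.0383), both named after their values were seen. Of 3 Muller glia genes analysed from a list of 4, 0 were called in either direction (0 at an unadjusted p under 0.05), with a median of -0.06.

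Of 10 B-cell genes, 4 were analysed and 0 called in either direction (1 had an unadjusted p under 0.05), with a median log2 difference of -0.48. Ighm, the heavy-chain constant gene of IgM, named after its values were seen, had 22.95, 23.89 and 47.26 in AAV-Sox11 libraries A, B and C, against 33.97, 47.06 and 102.3 in AAV-Control libraries A, B and C. Of 10 monocyte and granulocyte genes Mmp9 was analysed, with a log2 difference of 0.63 ± 0.28 (SE, limma adjusted p = 0.216).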
